A study of Mus musculus with 6 samples.

Results

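Cytosolic ribosomal protein genes encode the proteins that, with ribosomal RNA, build the small (40S) and large (60S) subunits of the ribosome. They were taken by symbol: Rps or Rpl followed by a number with an optional a, x or l, together with Rplp0, Rplp1, Rplp2 and Rpsa, protein-coding genes only, with at least 10 counts in at least 3 of the 6 libraries. Of the 80 protein-coding genes whose symbols matched, 74 met the count minimum, 31 of the small and 43 of the large subunit, in a table of 53465 genes. The rule used symbols and a count minimum over all 6 libraries, and not the difference between the groups. The set was chosen, however, with earlier results of these data known. A further 3 matching symbols were annotated as pseudogenes and were not used.

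The study sequenced poly(A)-selected RNA of ID8, a mouse ovarian surface epithelial cancer line, in 3 libraries labelled WT (numbers 4, 5 and 6) and 3 labelled KO (numbers 4, 5 and 6). The series' design text names ID8 cells stably carrying a control guide, sgNC, and cells carrying sgNat10, a guide against Nat10, and calls the latter a knockdown. Nat10 encodes the RNA acetyltransferase that makes N4-acetylcytidine. The labels do not say whether each guide line was a clone or a pool, or whether the libraries came from separate cultures. The p-values rest on the spread among the 3 libraries of a group, and that spread may be technical alone. The guide and the line that carries it cannot be told apart.

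The libraries held 1687466, 2148715 and 1811225 counts in WT and 2541273, 2234305 and 3126208 counts in KO, so that every KO-labelled library was deeper than every WT library. The part of depth in the differences was not tested. Nat10 itself had 168, 128 and 292 counts in WT and 315, 133 and 445 in KO, and its log2 fold change (KO minus WT) was -0.07 ± 0.48 (SE, edgeR adjusted p = 0.99996), with overlapping libraries. The KO libraries are called by their label throughout for that reason. Of 8 epithelial markers listed for ID8, 7 were tested, and Krt7 was close to absent with 6 counts in a single library. By edgeR, Krt18 and Krt19 were lower in KO (log2 fold changes of -1.74 ± 0.31 and -0.92 ± 0.13) and Msln was higher (1.05 ± 0.18), and their part in the results was not tested. None of 9 leukocyte, endothelial and pericyte markers passed the count minimum, the most abundant being Cd68 with 10 and 29 counts in WT 4 and WT 5.

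Most ribosomal proteins are present as a single copy in each ribosome, and their genes are strongly transcribed in growing cells. Their mRNAs typically begin with a cytosine followed by a run of pyrimidines, the 5′ terminal oligopyrimidine (TOP) motif, through which mTOR signalling and the RNA-binding protein Larp1 control their translation and stability. The genes have also left many processed pseudogenes in mammalian genomes, so short reads from them often match several places.

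No ribosomal protein gene passed edgeR's test between the groups, and the few with separate ranges lay on both sides. With edgeR's quasi-likelihood test and Benjamini-Hochberg adjustment over 8200 genes, 0 of the 74 had an adjusted p under 0.05, against 33 of all genes tested, or 0.402%. At an unadjusted p under 0.05 there were 4 ribosomal protein genes, Rps23 and Rpl13 higher and Rps25 and Rpl36a lower in KO, against 6.49% of all genes. DESeq2 called 3 of them, Rps23, Rpl13 and Rps25, against 2.53% of the genes it tested. Ranges of CPM, the counts scaled by TMM-adjusted library size, did not overlap for 4 genes that were higher in KO, Rps23, Rps27l, Rps13 and Rpl13, a share of 5.41% beside 6.94% of all genes tested. For 5 genes, Rps25, Rplp1, Rpl15, Rpl36a and Rpl5, the KO range lay wholly below the WT range, a share of 6.76% beside 7.93%. Both shares were near the background of all genes. In bulk RNA, fewer cells of a type and less RNA per cell cannot be told apart.

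As a set, the genes lay around 0. The estimate was above 0 for 39 and below 0 for 35, with a median log2 fold change of 0.05 beside -0.02 over all genes tested. The standard error of a single ribosomal protein gene had a median of 0.41, against 0.99 over all genes, and 24 of the 74 had a standard error above 0.5. The coefficient of variation over the WT libraries had a median of 24.7% for ribosomal protein genes and 49.2% for all genes tested. Ribosomal protein mRNAs were thus measured more closely than the typical gene. They were also more abundant, with a median WT level of 121 CPM beside 36.4 CPM over all genes tested. The part of level in this closeness was not tested. Estimates of several standard errors, such as those of Rps23, Rpl13 and Rps25, were still not called by edgeR.

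Start sites were read from RefSeq windows (GRCm38.p6), of which 63 matched 54 of the 74 genes. A gene with several windows was counted as having a pyrimidine run if any of them had one, and the window with the run nearest its start is shown. Windows of 30 bases before and 20 after the start are shown for genes with a window whose KO and WT ranges were apart and, for the form of the motif, Rps18 and Rpl28, with the pyrimidine run in capitals where a cytosine followed by at least 4 pyrimidines began within 5 bases of the start. A RefSeq start need not be the start used in these cells.

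Rps23, chr13:90923092-90923141, plus strand: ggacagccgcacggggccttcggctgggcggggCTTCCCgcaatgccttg
Rps27l, chr9:66946056-66946105, plus strand: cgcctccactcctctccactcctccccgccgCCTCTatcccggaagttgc
Rps18, chr17:33955646-33955695, minus strand: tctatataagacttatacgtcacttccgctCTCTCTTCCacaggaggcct
Rpl15, chr14:18270967-18271016, minus strand: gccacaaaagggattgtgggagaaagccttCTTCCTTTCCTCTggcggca
Rpl28, chr7:4792935-4792984, plus strand: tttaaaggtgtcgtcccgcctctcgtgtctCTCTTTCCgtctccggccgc
Rpl13, chr8:123102320-123102369, plus strand: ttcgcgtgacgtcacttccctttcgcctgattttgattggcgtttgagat
Rps25, chr9:44407684-44407733, plus strand: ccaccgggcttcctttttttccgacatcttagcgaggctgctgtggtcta
Rpl36a, chrX:134585624-134585673, plus strand: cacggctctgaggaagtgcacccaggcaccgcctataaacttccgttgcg
Rps13, chr7:116334171-116334220, minus strand: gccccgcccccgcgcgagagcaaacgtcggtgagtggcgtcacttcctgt
Rpl5, chr5:107900498-107900547, plus strand: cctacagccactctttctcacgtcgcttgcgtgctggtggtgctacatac

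Within the small subunit, Rps23 differed most clearly. Rps23 encodes a protein of the decoding centre, and lies on chr13:90922958-90924950 (mm10). It had 152, 230 and 264 counts in WT and 862, 719 and 992 in KO, which is 92.4, 115 and 153 CPM against 336, 308 and 308 CPM. Every KO library was above every WT library, by a factor of 2.64 between group means (120.0 ± 30.4 and 317 ± 16.4 CPM, SD, n = 3). The log2 fold change was 1.40 ± 0.30 (95% interval 0.77 to 2.04), with an edgeR adjusted p of 0.0632 and a DESeq2 adjusted p of 3.56e-05. It passed the threshold in edgeR when library totals replaced TMM (adjusted p = 0.0328) and when no filter was applied (0.00766), so the call for this gene depended on the setting, and its estimate stayed between 1.25 and 1.61 without each library in turn.

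Rps25, which encodes a protein of the subunit's head known for its role in ribosome recruitment by some internal entry sites, was the lowest in KO. Its counts were 185, 174 and 102 in WT and 51, 2 and 46 in KO, or 86.1 ± 26.8 against 11.7 ± 9.78 CPM. All 3 KO values lay below all 3 WT values, with KO 5 nearly empty. The log2 fold change was -2.87 ± 0.89 (edgeR adjusted p = 0.386, DESeq2 adjusted p = 0.0185). Of its exon sequence, 24.8% overlaps Ccdc84 and Trappc4, and the sources used here do not state whether counting used strand.

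Rps27 and Rps27l are a paralog pair with coding sequences of 255 bases each. They are printed to show how far the copies differ. The 61 differing bases, in capitals, leave no identical run longer than 11 bases, and the identity is 76.1%.

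Rps27: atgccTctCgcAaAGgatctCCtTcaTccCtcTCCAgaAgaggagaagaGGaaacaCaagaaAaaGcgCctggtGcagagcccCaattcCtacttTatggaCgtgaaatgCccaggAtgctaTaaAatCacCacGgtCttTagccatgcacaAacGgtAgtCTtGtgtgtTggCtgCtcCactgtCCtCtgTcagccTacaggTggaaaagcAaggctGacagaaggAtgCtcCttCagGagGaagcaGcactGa
Rps27l: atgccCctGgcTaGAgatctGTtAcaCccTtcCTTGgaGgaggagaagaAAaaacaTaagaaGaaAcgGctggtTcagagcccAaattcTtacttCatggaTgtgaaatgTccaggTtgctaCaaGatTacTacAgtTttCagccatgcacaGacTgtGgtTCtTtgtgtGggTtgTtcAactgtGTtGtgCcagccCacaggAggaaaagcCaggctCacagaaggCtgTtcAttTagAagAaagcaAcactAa

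Other small-subunit genes differed less clearly. Rps27l, a close relative of Rps27, had 50, 48 and 3 counts in WT and 164, 113 and 239 in KO, with a log2 fold change of 1.73 ± 0.94 (edgeR adjusted p = 0.914). WT 6 was nearly empty for this gene, and the KO values lay above all WT values. Rps13 stood at 63.8, 63.0 and 57.2 CPM in WT and 92.1, 67.2 and 150 CPM in KO, with no overlap, but its log2 fold change of 0.75 ± 0.48 did not pass the test (edgeR unadjusted p = 0.139). Rps18, a protein of the head, had an estimate of 0.75 ± 0.41, with overlapping libraries. Rpsa, the laminin receptor and 40S protein, was the next lowest with -1.59 ± 0.75, at 108, 55.0 and 90.8 CPM in WT and 6.63, 17.6 and 59.9 CPM in KO, so that KO 6 lay above WT 5. Rps7, which can also bind Mdm2, and Rps20 had -0.77 ± 0.45 and -0.64 ± 0.61, with overlapping libraries. Rps27a, which is made as a fusion with ubiquitin, was at 116 ± 20.4 CPM in WT and 123 ± 20.9 in KO.

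The remaining small-subunit genes overlapped between the groups. Rps29, a zinc-binding protein of the head, had 281, 282 and 395 CPM in WT and 367, 422 and 417 in KO, with WT 6 inside the KO range (0.33 ± 0.24). Rps16 varied most over the WT libraries, with 6, 86 and 116 counts there and 42, 106 and 237 in KO (0.25 ± 0.95). Rps21 and Rps15a had estimates of -0.22 ± 0.24 and 0.24 ± 0.43. The sign of Rps16 and Rps27a turned when single libraries were left out. Among 16 small-subunit genes not named for any of these reasons, 10 estimates were above 0. None had an unadjusted p under 0.05, which the naming rule fixed by taking the smallest p values in each direction.

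**Figure D1:**
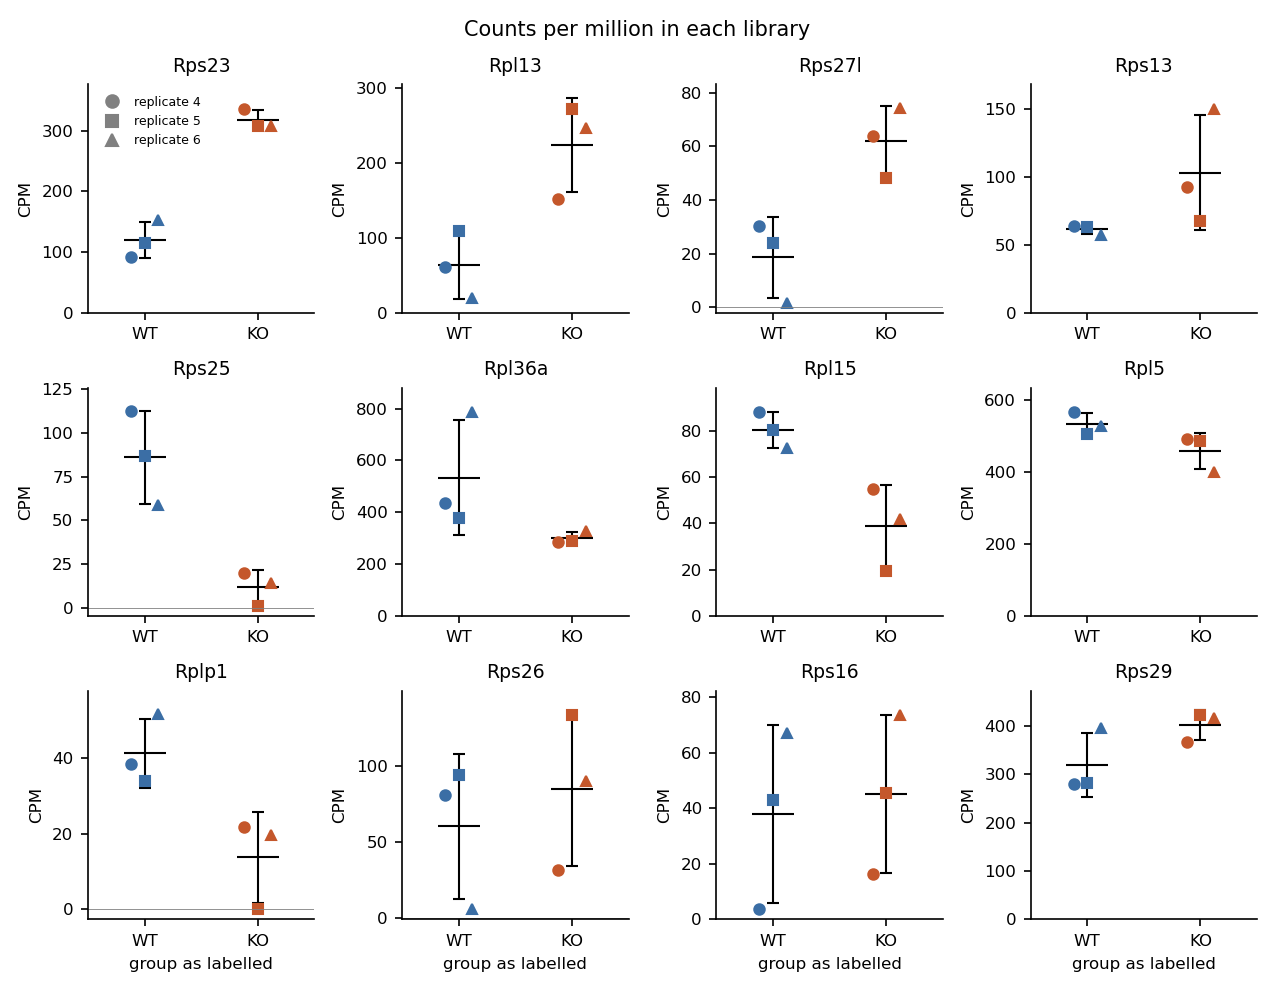
CPM in each library for ribosomal protein genes named in the text, WT and KO libraries as separate points with bars for mean ± SD (n = 3). Rps23, Rpl13, Rps27l and Rps13 lie higher in every KO library, Rps25, Rpl36a, Rpl15, Rpl5 and Rplp1 lie lower, and Rps26, Rps16 and Rps29 overlap.

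Rpl13, of the large subunit, had 100, 218 and 34 counts in WT and 390, 635 and 796 in KO. Its WT libraries varied from 19.7 to 109 CPM, and the KO libraries lay above all of them at 152 to 272 CPM. The log2 fold change was 1.82 ± 0.51 (edgeR adjusted p = 0.254, DESeq2 adjusted p = 0.00547), and without a filter on low counts edgeR also called it (0.00259). Its mRNA is largely repeated elsewhere: 78.9% of the 100-base stretches of its main transcript also occurred in another annotated gene, and 7 pseudogenes shared some.

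Rpl36a had 718, 753 and 1360 counts in WT and 727, 673 and 1052 in KO. The KO values of 284 to 326 CPM lay below the WT values of 376 to 786 CPM. WT 6 was much the highest, and the log2 fold change of -0.83 ± 0.28 (edgeR adjusted p = 0.443) became -0.44 without it. Rpl15, a Diamond-Blackfan anaemia gene, was at 80.5 ± 7.66 CPM in WT and 38.7 ± 18.1 in KO, with no overlap and a log2 fold change of -1.05 ± 0.59. Rpl7a, which had 33 pseudogenes sharing sequence, and Rpl22 had estimates of -0.57 ± 0.30 and -0.47 ± 0.28, with overlapping libraries. Rpl21 and Rpl37 were among the next highest, with 0.82 ± 0.42 and 0.54 ± 0.37, also overlapping. Rpl37 had 285, 161 and 143 CPM in WT and 167, 253 and 438 in KO. The 2 most abundant mRNAs, Rpl7 and Rpl8, had estimates of 0.14 ± 0.17 and -0.14 ± 0.18, and that of Rpl7 became -0.026 without KO 6. Rpl18, Rpl28 and Rpl38 had 0.50 ± 0.52, 0.32 ± 0.93 and -0.28 ± 0.33, with overlapping libraries. Among 24 large-subunit genes not named for any of these reasons, 11 estimates were above 0, and they lay between -0.98 (Rpl29) and 0.57. None of these genes had an unadjusted p under 0.05, which the naming rule again fixed in advance.

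The stalk and the 5S RNA complex were described in full. The stalk, which recruits translation factors, is made of Rplp0, Rplp1 and Rplp2 on a base that includes Rpl12. Rplp1 had 63, 68 and 89 counts in WT and 56, 0 and 63 in KO, with a log2 fold change of -1.57 ± 1.42, and KO 5 had no count. Rplp0, Rplp2 and Rpl12 overlapped between groups, with estimates of -0.06 ± 0.33 (0.039 with library totals), -0.53 ± 0.49 and 0.09 ± 0.41. Rpl5 and Rpl11, which with 5S RNA form the complex that can bind Mdm2, differed in sign: Rpl5 had 533 ± 30.2 CPM in WT and 459 ± 50.9 in KO, without overlap (-0.22 ± 0.21), and Rpl11 had 123 ± 15.6 and 184 ± 58.4 (0.58 ± 0.35).

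By position in the ribosome, no list held a gene called by edgeR, and the medians ran as follows. In the 40S head 10 of 14 estimates were above 0 (median 0.26) and in the 40S body and platform 9 of 17 (0.17). Of the 60S lists, the stalk had 1 of 4 above 0 (median -0.30), the exit tunnel 5 of 8 (0.02) and the rest 13 of 29 (-0.14). Over all genes tested, 49.0% of estimates were above 0. Among the genes mutated in Diamond-Blackfan anaemia, a failure of red cell production, 17 of 18 were tested, 9 were above 0 and the median was 0.33, and Rpl35a was under the count minimum.

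The subunits were then compared as sums, since a ratio within a library does not depend on library scaling. Small-subunit genes held 0.421, 0.422 and 0.451% of counts in WT and 0.511, 0.483 and 0.528% in KO, so every KO library was above every WT library. The large subunit held 1.04, 1.01 and 1.11% in WT and 1.08, 1.04 and 1.16% in KO, which overlapped, and all 74 genes together held 1.47, 1.43 and 1.56% against 1.59, 1.52 and 1.68%. Gm42418, which overlaps ribosomal RNA, took 12.9 ± 0.855% of counts in WT and 9.72 ± 0.390% in KO, and without it the difference in the share of all 74 genes was 0.0651 in place of 0.112 points. The ratio of large- to small-subunit counts, which Gm42418 does not enter, was 2.48, 2.39 and 2.47 in WT and 2.12, 2.15 and 2.19 in KO. The group means were 2.45 ± 0.0476 and 2.15 ± 0.0371, and the difference of -0.294 exceeded the spread within either group. No p is given for a sum over these genes.

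Single genes weighed heavily in that difference. The share of all counts was 0.0758 percentage points higher in KO for the small subunit and 0.0212 points higher for Rps23 alone. Within the large subunit it was higher for Rpl7 by 0.0357 and for Rpl13 by 0.0171 points, and the differences (KO minus WT) for Rpl36a, Rpl7a and Rpl22 were -0.0201, -0.0114 and -0.00885 points. Without Rps23 the ratio was 2.51 in WT and 2.30 in KO, still without overlap. Leaving out the 5 genes whose removal brought the difference nearest to 0, Rps23, Rpl36a, Rpl8, Rpl7a and Rpl22, gave 1.96 and 1.90, and the libraries overlapped. Those genes were chosen after their values were seen, so a smaller difference was built into that choice. Removing Rps9, Rps21 or Rps4x alone widened the absolute difference, with shifts of -0.0837, -0.0782 and -0.0536. Leaving out a small-subunit gene raises the ratio itself in both groups, so these shifts do not show a larger difference in proportion. Without the 5 genes with the largest shifts in either direction, Rps9, Rps23, Rps21, Rpl36a and Rps4x, the ratio was 3.34 and 2.95, without overlap. Over the 41 genes with under 50% shared sequence the ratio was 1.97 and 1.82, and overlapped as well. Over the other 33 genes the ratio was 3.75, 3.57 and 5.68 in WT and 3.31, 3.46 and 2.85 in KO, without overlap. The group means there were 4.33 ± 1.17 and 3.21 ± 0.314, with WT 6 much the highest. The per-library medians of log2 CPM overlapped between groups for both subunits. For the small subunit they averaged 6.69 ± 0.212 in WT and 6.87 ± 0.246 in KO. Those of the large subunit averaged 7.15 ± 0.0450 and 7.28 ± 0.255. By this measure both subunits were higher in KO, by 0.177 and 0.137. KO 6 stood at 7.58 for the large subunit, with KO 4 and KO 5 at 7.13 and 7.14.

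**Figure D2:**
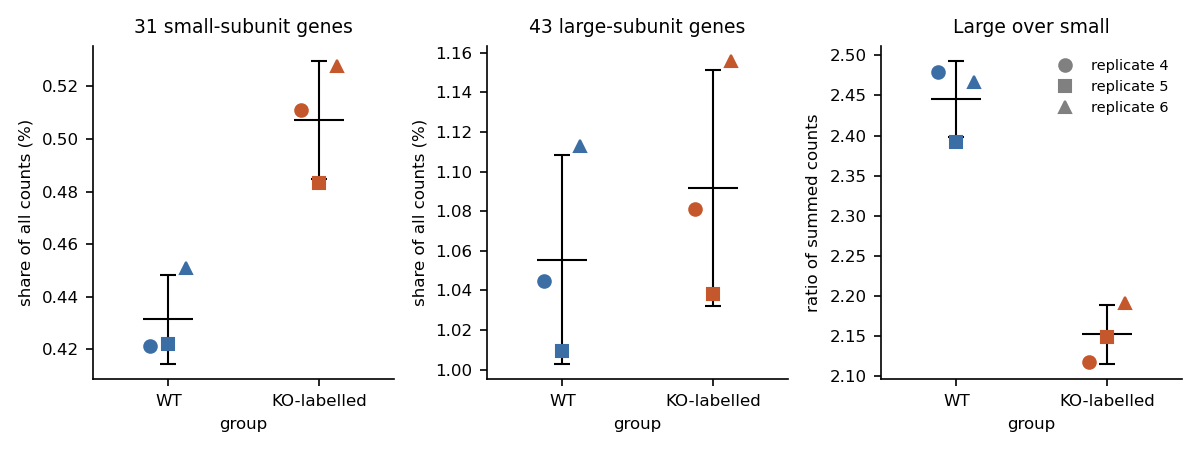
Percent of counts on small- and large-subunit genes and the ratio of large to small in each library, with bars for mean ± SD (n = 3) and axes that do not start at 0. The ratio lies between 2.39 and 2.48 in WT and between 2.12 and 2.19 in KO.

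Levels per kilobase of exon differed widely among the genes. Rpl8 was the highest in WT with 780 ± 67.6 CPM per kilobase and Rpl7 followed with 747, from 2017, 1990 and 2017 CPM. Rps21 (498 ± 70.1), Rpl38 (476 ± 183), Rpl41 (463 ± 58.1) and Rps29 (461 ± 95.1) came next. Rpl8 and Rpl7 did not differ beyond the spread of the replicates, and neither did the 4 genes after them. Among the lowest were Rps15a (13.8), Rpl18 (15.7), Rps20 (16.6), and Rpl28 and Rpl36 (18.1 each). The median was 42.1 in the small and 68.7 in the large subunit. These levels depend on the merged exons of all annotated isoforms, which can be far longer than the main transcript. Merged exons spanned 6.27 kilobases for Rps15a and 4.04 for Rpl18, beside main transcripts of 640 and 679 bases. The part of annotated length in these ranks and medians was not tested. WT and KO levels were correlated across the 74 genes (Pearson r = 0.886, which describes genes in shared libraries and is no test).

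Levels were also set against the sequence that a gene shares with others. The 41 genes with under 50% of 100-base stretches shared had a median of 74.6 CPM per kilobase and the 33 with more had 53.0. Across genes the correlation of log2 level with shared percent was -0.263 (Spearman -0.244), a description over genes that share libraries and an unstated counting rule for reads with several matches. For the log2 fold change against shared percent, r was 0.066. No stretch was shared by Rps21, Rpl32, Rpl22, Rps27l and Rps3, and 10 genes shared more than 80%, such as Rps27 with 98.4%.

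**Figure D3:**
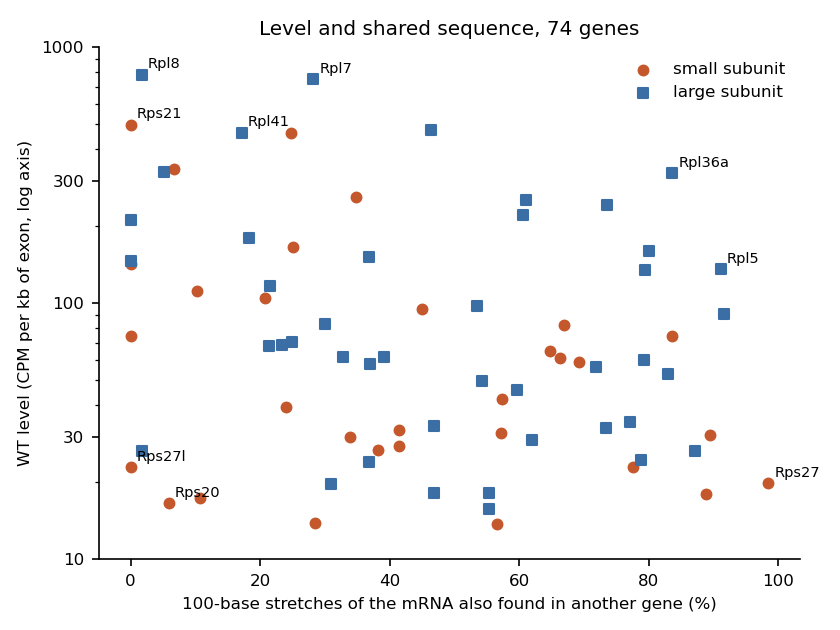
WT level in CPM per kilobase (log axis) against the percent of 100-base stretches shared with another annotated gene, 1 point per ribosomal protein gene. The scatter is wide, with Rpl8 and Rpl7 highest at 1.73% and 28.2% shared and Rps27 low at 98.4%.

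Of the 6 matching genes under the count minimum, Rpl10l, Rpl24 and Rpl39l had no count in any library, Rpl3l had 4 counts in KO 6, Rpl13a had 33 counts in KO 4 alone, and Rpl35a had 60 and 40 counts in WT 4 and WT 5 and 2 in KO 6. Rpl24, Rpl13a and Rpl35a are structural proteins of every 60S subunit, while Rpl3l, Rpl10l and Rpl39l are tissue-restricted copies. Of Rpl24, 80.1% of 100-base stretches are shared and 47.0% of exon overlaps another gene, and for Rpl13a the shares are 55.2% and 35.4%. The part of shared and overlapping sequence in these low counts was not tested. Just inside the minimum was Rpl36, with 19, 0 and 16 counts in WT and 179, 0 and 0 in KO, and an estimate of 1.74 ± 2.51. Near-empty libraries also occurred among the 74: Rps16 had 6 counts in WT 4, and Rps26 and Rps27l had 10 and 3 in WT 6. Such libraries, under 10% of the mean of the other 2 in the group where both of those had at least 20 CPM, occurred in 3.45% of ribosomal protein genes at 37.8 to 427 CPM and in 6.98% of other genes there. KO 5 was also near empty for Rps25 and Rplp1, which are not in that count because another KO library had under 20 CPM.

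Rps27 had 20, 58 and 36 counts in WT and 109, 62 and 181 in KO, or 20.7 ± 8.41 and 41.7 ± 14.8 CPM, with an estimate of 1.01 (95% interval -1.12 to 3.14) and overlapping libraries. Rps27l shared no 100-base stretch with any gene, whereas Rps27 shared 98.4% with 2 genes. A separate list held 14 further genes of ribosomal proteins or their relatives that are not among the 74, of which 5 were tested. Most have symbols outside the rule. Rpl3l, Rpl10l and Rpl39l match it but were under the count minimum, and Rps4l matches by symbol but is not among the protein-coding matches. Rpl7l1, a relative of Rpl7, had an estimate of -1.65 ± 0.67 (edgeR adjusted p = 0.588) with KO wholly below WT, and Rps3a1, Rack1 and Fau had 0.14, -0.16 and 0.48. Neither edgeR nor DESeq2 called any of the 5, and Rpl7l1 alone had an edgeR unadjusted p under 0.05, beside 6.49% of all genes tested.

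A pyrimidine run of the kind shown in capitals was present at 26 of 54 ribosomal protein genes (48.1%) and at 21.1% of other genes with a window, read on the transcribed strand. In windows of 250 bases before and 50 after the start, searched on both strands, the ETS core CCGGAAG was found in 44.4% and 9.86%, the YY1 core AAGATGG in 13.0% and 7.26%, and TATAAA in 11.1% and 15.7%. A match is a description of letters and not a site. Of the 26 genes with a run, 17 had an estimate above 0 (median 0.21), against 10 of 28 without (median -0.17). The medians were ordered alike in both subunits, with no test made: small-subunit medians were 0.51 over 12 genes and -0.01 over 11, and large-subunit medians were 0.05 over 14 and -0.24 over 17. Of the 4 genes at an unadjusted p under 0.05, Rps23 has a run and was higher in KO. Rps25 and Rpl36a have none and were lower, and Rpl13 has none and was higher. A run was counted only within 5 bases of the RefSeq start, and the windows of Rps25 and Rpl13 hold pyrimidine runs further upstream.

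**Figure D4:**
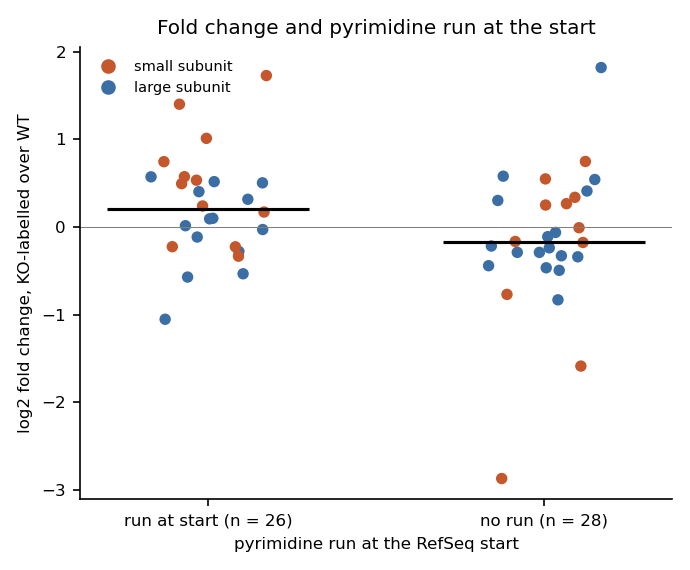
Log2 fold changes (KO minus WT) of the 54 ribosomal protein genes with a RefSeq start, with colours for the subunits, split by presence of a pyrimidine run at the start. Lines mark medians, 0.21 with a run and -0.17 without.

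Other mRNAs with a TOP start, listed from textbook knowledge, had mostly estimates below 0: of 20 tested 7 were above and 13 below, and the median was -0.15. edgeR called none of the 20, with 5 at an unadjusted p under 0.05 beside 6.49% of all genes tested. DESeq2 called Vim alone (adjusted p = 0.0474), beside 2.53% of the genes it tested. Vim, Eef2 and Eef1b2 had estimates of 0.39 ± 0.13, 0.41 ± 0.15 and 0.64 ± 0.26 with KO wholly above WT, while Npm1 had -0.39 ± 0.18 with KO wholly below. Mitochondrial ribosomal proteins, 72 of 78 tested, were split 36 and 36 around 0 (median 0.00) with 0 called by edgeR or DESeq2 and 0 at an unadjusted p under 0.05, and Mrps27 and Mrpl44 had the smallest p with -1.87 ± 0.91 and -2.70 ± 1.57. Of 20 regulators and chaperones of ribosomal proteins, 3 had an edgeR unadjusted p under 0.05, beside 6.49% of all genes tested. Of the 20, 0 were called by edgeR or DESeq2. The smallest p values among them were those of Bccip, a chaperone of Rpl23, with -1.42 ± 0.49 (147.8 ± 22.4 to 55.4 ± 29.5 CPM) and Larp1, the TOP-binding protein, with -1.08 ± 0.40 (167.6 ± 67.7 to 79.3 ± 14.1 CPM).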

How the data were processed

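Poly(A)-selected RNA of 6 ID8 libraries, 3 labelled WT and 3 labelled KO, was sequenced. The deposited table holds raw counts per gene, 53465 genes in 6 libraries, made by the authors with fastp, HISAT2 2.0.5 and featureCounts 1.5.0-p3 on mm10, per the submitters' processing notes. Settings for strand, for reads with several matches and for overlapping genes are not stated in the labels or processing notes. All 6 value columns match a labelled sample, and 0 columns were unused.

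Counts were tested with edgeR 4.0.16 (quasi-likelihood, robust, TMM, filterByExpr with 10 counts) in R 4.3.3, two-sided with Benjamini-Hochberg adjustment over 8200 genes and a threshold of 0.05. DESeq2 1.42.0 and limma-voom 3.58.1 were alternatives. The edgeR step was run on simulated data with changes larger than most estimates here, so its ability to call changes of their size was not tested. CPM used TMM-scaled sizes, and levels per kilobase used merged exons of GENCODE M21. Shared sequence is the percent of 100-base stretches of the main transcript found in another gene's transcripts on either strand.

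Members and lists were chosen with earlier results of these data known. Named genes were, in each subunit, the 4 with the smallest p in each direction, the 3 most and 3 least abundant per kilobase in WT and those with the largest and smallest WT spread; all of the stalk, the 5S complex and Rps27a; Nat10; and in each other list the called genes or the 2 with the smallest p. Rps27, Rps26 and others set beside them were chosen after their values were seen. A few genes of the set are counted in sums and medians but not reported singly here. Lists are given by count and median only. Alternatives changed the tool, the scaling, the filter, the threshold, a replicate block and the libraries kept. Depth limits precision to counting error plus the library spread. No protein sequence was used here.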

Additional observations from a re-analysis of the deposited data

How the results depend on the processing

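The count of ribosomal protein genes called, 0 in edgeR, was 3 with DESeq2, 1 with library totals in place of TMM and 2 without a filter on low counts, and 0 without each library in turn. Over all genes the count was 33, and it was 235 with DESeq2, 91 without a filter, 16 at a threshold of 0.01 and 6 to 29 without each library. Deviations of same-numbered libraries from their group means were correlated by -0.0167, -0.00258 and -0.00666, and no library correlated best with its own number. For differently numbered libraries the correlations lay between -0.0204 and 0.0284. With all values this small, the check cannot exclude that the numbers mark a pairing. With a replicate block, 0 ribosomal protein genes and 38 genes in all were called, and the subunit medians were 0.19 and -0.14.

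The difference (KO minus WT) of the large- to small-subunit ratio was -0.294, -0.365 per kilobase of exon and -0.322 to -0.277 without each library. Chosen after seeing the data, it was -0.213 without Rps23, -0.143 over genes with under 50% shared sequence, -0.0594 without the 5 genes whose removal brought it nearest to 0 and -0.388 without the 5 with the largest shifts in either direction. The ratios themselves differed between these sets, with 3.34 in WT and 2.95 in KO for the last, so the differences are not on the same scale. Library totals moved the median of all genes to 0.09, and with it the large-subunit median to 0.04. Without each library in turn the large-subunit median lay between -0.17 (without KO 4) and 0.03 (without WT 6) and the small-subunit median between 0.14 (without WT 4) and 0.29, and over genes with at least 100 counts in every library they were -0.11 and 0.13.

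Of 32 named genes, 24 kept their sign in every setting, but for 18 of these the estimate moved by over 1.5 times when a library was left out. Rpl37 then ranged from 0.093 to 0.91, Rpl18 from 0.11 to 0.80, Rplp2 from -1.06 to -0.12, Rps20 from -0.86 to -0.17, Rps15a from 0.015 to 0.44 and Rpsa from -2.81 to -1.11. Signs turned for Rpl28 (-0.052 with limma-voom, -0.13 with the block, -0.22 to 0.84 without each library), Rpl36 (-1.18, -1.02, and -6.93 to 2.32) and Rplp0 (0.039 with library totals, -0.44 to 0.24). Without each library in turn, Rpl12 ranged from -0.29 to 0.35, Rpl38 from -0.52 to 0.038, Rpl7 from -0.026 to 0.29, Rps16 from -0.30 to 0.95 and Rps27a from -0.061 to 0.21. The causes were not tested. The planned filter on protein identity was not run, and shared 100-base stretches stood in for it. Counts per gene limit these values most where a library was near empty.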
